A study of Mus musculus with 11 samples.

Results

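The 6 libraries described here are the male ones of a series of 11 RNA-seq libraries from mouse primary lung fibroblasts: 3 from cGAS knockout (KO) mice and 3 from wild-type (WT) mice. They were chosen because their count tables carry a library-set name of their own in the files, and no value from the other 5 libraries is used. Each library came from a separate animal, cultured in DMEM/F12 medium with 15% fetal bovine serum at 5% CO2, 5% O2 and 37 degrees Celsius. No other treatment is named, and the labels give neither strain nor age. Total RNA was depleted of ribosomal RNA before sequencing. The extraction text speaks of pulverized tissue, whereas the growth text and the sample names speak of cultured cells.

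cGAS is a cytosolic enzyme that binds double-stranded DNA and makes the cyclic dinucleotide cGAMP. cGAMP activates STING, which recruits the kinase TBK1 and drives the transcription factors IRF3 and NF-kB, the source of interferon and inflammatory transcripts. A nuclear, chromatin-bound pool of cGAS is also known, and the title of the series names chromatin organization, LINE-1 elements (retrotransposons that copy themselves through RNA) and inflammation as its subjects.

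The libraries held 37740674 to 48039328 counts over 58223 entries, of which 56980 were genes and 1243 were repeat subfamilies (RNA counted over all copies of one type of repeat). Levels are given as CPM, each library's counts scaled to a common total, and pairwise correlations of log2 CPM were at least 0.978. The first principal component took 49.8% of the variance and placed the KO libraries at -34.0, -26.8 and -13.9 and the WT libraries at 36.6, 8.4 and 29.6. The second took 26.7% and set WT 1 (-33.2) against WT 3 (33.5), with the KO libraries between -5.5 and 0.7. The fibroblast markers were among the abundant transcripts of every library, with 10 of 10 above the count filter and a summed level of 37628 to 51130 CPM. WT 1 stood apart within that list: Dcn, which encodes the matrix proteoglycan decorin, was at 11.8 CPM there and at 52.3 to 87.3 CPM in the other 5 libraries. Markers of other cell types were also present. The 20 macrophage and leukocyte markers summed to 15523, 13623 and 9106 CPM in KO 1, KO 2 and KO 3 and to 6625, 8490 and 6359 CPM in WT 1, WT 2 and WT 3. The 10 mesothelial markers summed to 225 CPM in WT 3, 132 in WT 2 and 29.3 to 67.2 in the rest, and the 11 epithelial markers above the filter to 59.7 CPM in WT 2, 48.7 in WT 3 and 13.2 to 24.4 in the rest. The 15 endothelial markers above the filter summed to 185, 175 and 148 CPM in KO and 146, 189 and 161 CPM in WT, although 12 of them were lower in KO (median -2.0, and -1.21 without WT 2). Vwf, 1 of the 3 that were higher, supplied 67.0, 55.3 and 31.3 CPM of the KO sums and 16.9, 27.9 and 21.0 CPM of the WT sums. Of 8 lymphocyte markers 1 passed the filter, Trac, at 0.491, 0.574 and 0.719 CPM against 5.50, 1.57 and 1.63 CPM. Pericyte markers summed to 290, 329 and 421 CPM against 470, 358 and 438 CPM. Contractile genes of smooth muscle and myofibroblasts summed to 2932, 3691 and 4389 CPM in the KO libraries and 8129, 5424 and 8896 CPM in the WT libraries. In bulk cultures, fewer cells of a type and less RNA per cell cannot be told apart.

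**Figure D1:**
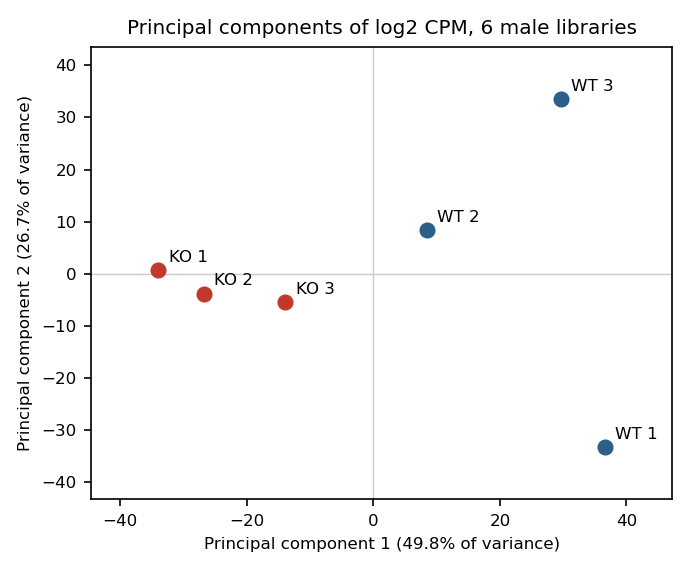
First and second principal components of log2 CPM (pseudocount 0.5) for the 6 male libraries, red for cGAS KO and blue for WT, each point 1 library. The KO libraries lie between -34.0 and -13.9 on the first component and the WT libraries between 8.4 and 36.6. WT 1 and WT 3 lie at opposite ends of the second component.

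Cgas itself (ENSMUSG00000032344, chromosome 9), the targeted gene, held 102, 101 and 111 counts in the KO libraries and 403, 403 and 222 counts in the WT libraries. On the scale used from here on, CPM corrected by the trimmed mean of M values (TMM), these were 2.28, 2.23 and 2.28 CPM against 9.90, 8.68 and 5.94 CPM. All 3 KO libraries lay below all 3 WT libraries, and the KO libraries kept a count well above 0. A count over the whole gene does not say which exons the remaining reads cover. The log2 difference, KO minus WT, was -1.85 (SE 0.20). In edgeR's quasi-likelihood test its Benjamini-Hochberg adjusted p over all entries was 0.0711, short of the threshold of 0.05. Without WT 2 it was 0.0392 and without WT 3 it was 0.0425, and without KO 1, KO 2, KO 3 or WT 1 it was 0.229, 0.286, 0.0501 and 0.0970. DESeq2 gave 5.34e-12 on all 6 libraries. STING (Tmem173 in the name table) stood at 38.4, 41.6 and 40.2 CPM in KO and 40.8, 39.1 and 37.2 CPM in WT, groups that overlapped.

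The comparison asked which transcripts differ when cGAS is missing. The edgeR test put none of 21226 entries tested (20193 genes and 1033 repeat subfamilies) past the threshold, 0.0% of them, although 5413 entries (25.5%) had an unadjusted p under 0.05. The smallest adjusted p, 0.0711, was shared by several entries, Cgas among them. limma-voom also called 0 (5285 at an unadjusted p under 0.05, smallest adjusted p 0.0841). DESeq2 called 2387 entries, 1450 higher in KO (6.83%) and 937 lower (4.41%). A rule without a fitted variance, that all 3 KO values lie on 1 side of all 3 WT values and the means differ by 1.5 fold or more, was met by 1219 entries higher in KO (5.74%) and 1159 lower (5.46%). Of the DESeq2 calls, 1499 (62.8%) met it too. Among the 20193 genes alone (95.1% of the entries) the rule was met by 6.01% upward and 5.44% downward, and DESeq2 called 7.16% and 4.44%. These shares are the background for every gene group below, together with the median difference of all entries, -0.012. edgeR called 258 entries without WT 2, the WT library nearest to the KO libraries on the first component, and 1162 without a low-count filter. The 2378 entries that met the rule in either direction (11.2%) became 2662 to 3741 when 1 library was left out, a rule that is easier to meet with 2 libraries against 3; the highest counts were 3741 without KO 3 and 3690 without WT 2. Since no entry passed the test fixed for this comparison, gene groups below are given by their values, by the number that met the 1.5 fold rule and by the number DESeq2 called.

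Among genes with a symbol of their own and at least 1 on the average log2 CPM scale, those with the smallest p that were higher in KO were headed by Ighm, the constant region of the IgM heavy chain. It stood at 7.34, 6.16 and 7.19 CPM in KO and 1.23, 1.51 and 0.803 CPM in WT, a log2 difference of 2.53 (SE 0.23; adjusted p 0.0711). Its groups did not overlap. The lymphocyte markers Ms4a1 and Cd3e held 0 to 2 counts in each library and Cd79a held 3 to 10, and the part of lymphocytes in the Ighm difference was not tested. Cbr2, a carbonyl reductase known from lung, stood at 44.6, 37.3 and 35.6 CPM in KO and 8.40, 14.7 and 7.49 CPM in WT (log2 1.94, SE 0.25). Dio3, the deiodinase that inactivates thyroid hormone, was at 8.68, 8.31 and 7.71 CPM against 1.47, 3.23 and 2.73 CPM (1.73, SE 0.26). Pira2, a paired immunoglobulin-like receptor of myeloid cells with near-identical family members, was at 60.2, 49.9 and 37.3 CPM against 16.1, 23.3 and 16.1 CPM. Its order across libraries followed the macrophage markers, highest in KO 1 and lowest of the KO libraries in KO 3. Cbr2 and Dio3 ranked in the same order over the KO libraries, and the part of that cell type in these differences was not tested. Enzymes of acetyl-CoA and acyl-CoA metabolism formed part of the same set. Acly, which makes cytosolic acetyl-CoA from citrate, stood at 302, 286 and 286 CPM in KO and 192, 200 and 176 CPM in WT (0.62, SE 0.09). Acsl3, a long-chain acyl-CoA synthetase, was at 26.1, 21.1 and 23.6 CPM against 12.8, 14.2 and 12.3 CPM (0.85, SE 0.11). Aacs, which activates acetoacetate, differed by 0.47 (SE 0.07), from 81.4 to 86.6 CPM in KO and 59.9 to 60.9 CPM in WT. The others of the 15 were Hebp1 (0.80), Rapsn (1.05), Camk1 (0.80), Ggt5 (1.51), Mgst3 (0.76), Clca3a2 (0.80), N4bp2l1 (1.18) and Tmem8 (1.20), all with log2 differences given and groups that did not overlap.

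Among the genes lower in KO with the smallest p, Gabra4, a subunit of the GABA-A receptor, stood at 1.38, 1.68 and 1.32 CPM in KO and 5.18, 4.01 and 4.87 CPM in WT (log2 -1.68, SE 0.17). Lgr6, a receptor for R-spondins, was at 0.982, 0.950 and 0.760 CPM against 6.12, 2.99 and 3.93 CPM (-2.27, SE 0.29). Npr3, the clearance receptor for natriuretic peptides and the most abundant of the set, was at 86.4, 96.6 and 94.0 CPM against 342, 185 and 244 CPM (-1.48, SE 0.21). In Lgr6 and Npr3 the KO libraries lay close together and most of the spread was among the WT libraries. In Gabra4 the spread was similar relative to the mean (SD 0.193 around 1.46 CPM in KO and 0.610 around 4.69 CPM in WT). Sema3e, a secreted semaphorin, differed by -1.77 (SE 0.22), with KO values of 3.89 to 4.65 CPM and WT values of 11.4 to 20.2 CPM. Peg3, an imprinted zinc finger gene, stood at 10.1, 12.7 and 12.9 CPM in KO and 30.0, 22.5 and 33.0 CPM in WT. Notch4 (-1.0), Krt19 (-0.91), Cobl (-1.75), Klf5 (-1.11), Gja1, a connexin of gap junctions (-0.73), and Snhg17, a small nucleolar RNA host (-0.85), also had KO values below every WT value. Schip1 (-1.10) and Iqschfp (-1.09), its readthrough gene, overlap, so their counts cannot be told apart. Krt19, a keratin, is also an epithelial and mesothelial marker. The part of those cell types in its difference was not tested.

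**Figure D2:**
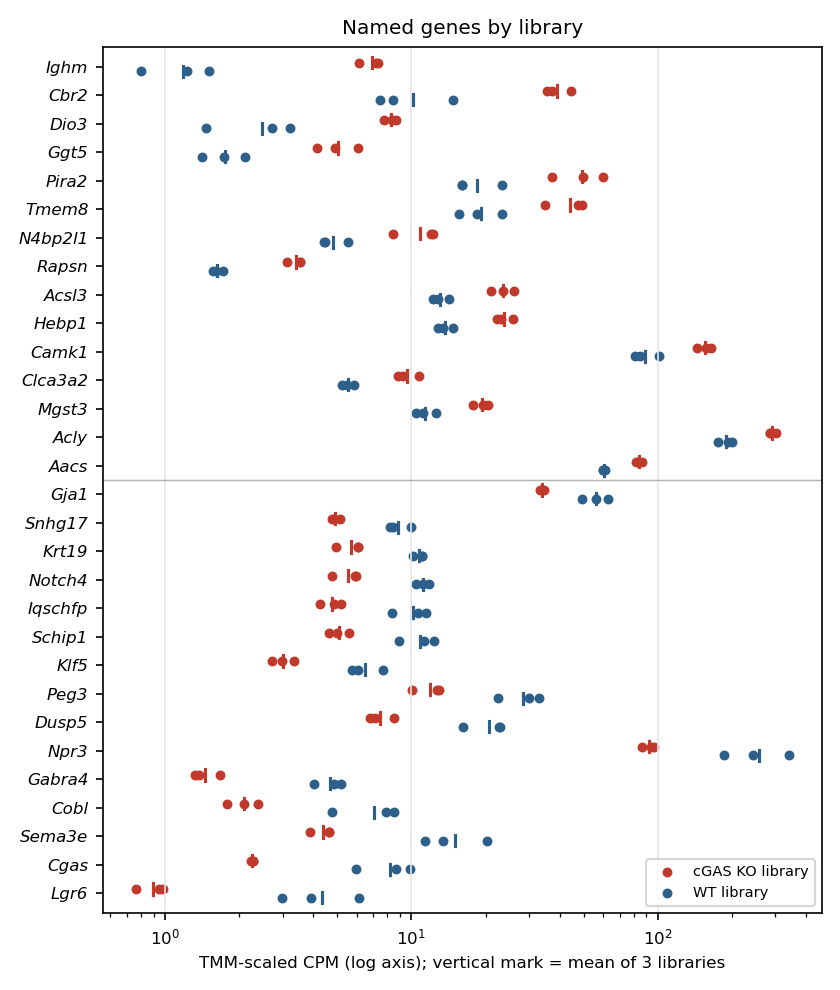
TMM-scaled CPM on a log axis for the 15 genes with the smallest p that were higher in KO (upper block) and the 15 that were lower (lower block, Cgas included), each point 1 library and each vertical mark the mean of 3. The KO and WT points of all 30 genes do not overlap, and none of the genes is past the edgeR threshold.

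Gene groups of innate immunity lay mostly above WT without cGAS. Of 47 interferon-stimulated genes tested, 40 had a positive difference, against 10325 of all 21226 entries, with a median of 0.32. 8 met the 1.5 fold rule upward and 1 downward, and DESeq2 called 12 upward and 1 downward. Epsti1 stood at 18.1, 15.1 and 12.2 CPM in KO and 6.44, 9.56 and 6.23 CPM in WT (1.03, SE 0.21). Gbp7, a guanylate-binding GTPase, was at 17.8, 16.7 and 14 CPM against 7.17, 11.9 and 8.03 CPM (0.83, SE 0.20). Stat2, a transcription factor of interferon signalling, was at 47.2, 40.9 and 41.9 CPM against 18.1, 33.8 and 29.0 CPM (0.68, SE 0.21). WT 1 was the lowest WT library for Gbp7 and Stat2, and WT 2 the highest for all 3. Tor3a, the member with the next smallest p, differed by 0.44. Other members had the opposite sign or none: Ifit1 differed by -0.12 (SE 0.45), and Oasl1, a brake on IRF7 translation, was lower at 0.491, 0.530 and 0.658 CPM against 0.786, 1.79 and 1.87 CPM. The median of the group was 0.15 without WT 1 and 0.25 to 0.47 without each other library. The sensors of foreign nucleic acid other than cGAS were placed likewise, 17 of 20 positive with a median of 0.42 (0.28 without WT 1), 5 meeting the rule upward and 0 downward. Unc93b1, the chaperone of the endosomal Toll-like receptors, stood at 296, 268 and 187 CPM in KO and 105, 146 and 114 CPM in WT (1.04, SE 0.20). Tlr9, the endosomal receptor for DNA, was at 7.36, 4.31 and 2.14 CPM against 1.33, 2.07 and 1.90 CPM, so that KO 3 was barely above WT 2. Ifi203 (0.66) and Ifi207 (0.73), members of the p200 family of DNA-binding proteins, also met the rule; members of that family are near-identical in sequence and their counts are uncertain. Summed macrophage markers moved in the same order as Epsti1, Gbp7, Tor3a, Unc93b1, Tlr9, Ifi203 and Ifi207 over the KO libraries, though not as Stat2. The part of macrophages in the interferon and sensor differences was not tested.

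The other genes of the cGAS pathway were spread around 0. Of the 21 genes of the pathway and of cGAMP handling, Cgas included, 10 were positive and the median was -0.01. Lrrc8c, a subunit of the volume-regulated channels that pass cGAMP, stood at 60.3, 59.8 and 59.5 CPM in KO and 78.8, 72.3 and 87.9 CPM in WT (-0.41, SE 0.09). Ikbke, a kinase related to TBK1, was at 63.3, 57.5 and 46.3 CPM against 27.7, 42.1 and 34.3 CPM (0.68, SE 0.18). NF-kB subunits, inhibitors and feedback targets were positive in 21 of 26, with a median of 0.26, 3 meeting the rule upward and 0 downward. Nfkbie, an inhibitor of NF-kB, stood at 12.9, 12.9 and 9.99 CPM against 6.34, 8.81 and 6.77 CPM (0.71, SE 0.17), and Tnfaip2 at 236, 240 and 260 CPM against 157, 189 and 170 CPM (0.51, SE 0.10). Birc3, an inhibitor of apoptosis, differed by 0.64. Ikbke, Nfkbie and Birc3 were lowest of the KO libraries in KO 3, as were the macrophage markers, and the part of those cells was not tested. Chemokines and cytokines lay on both sides of 0: 18 of 28 were positive, and the median was 0.13 (-0.03 without WT 1). Il6 differed by 0.39 (SE 0.23) with groups that overlapped. Cxcl14 was lower at 20.4, 24.7 and 14.6 CPM against 33.5, 41.5 and 32.1 CPM (-0.85, SE 0.20), as were the IL-6 family cytokine Clcf1 (-0.71) and the chemokine Cx3cl1 (-0.40). Among 17 prostanoid genes, Ptgs2, the inducible cyclooxygenase, was the one with the smallest p. It stood at 39.2, 53.3 and 49.4 CPM in KO and 152, 101 and 194 CPM in WT (-1.65, SE 0.24; adjusted p 0.0731), whereas the prostaglandin receptors Ptger4 (0.92) and Ptger1 (0.38) were higher. Ptger4, unlike Ptger1, ranked over the KO libraries as the macrophage markers did, and their part was not tested.

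Genes of antigen presentation by MHC class I, which shows peptides to T cells, were mostly higher, DESeq2 calling 13 of 20 upward and 0 downward. Of the 20, 16 were positive, 9 met the 1.5 fold rule upward and the median was 0.64. H2-D1 stood at 1016, 803 and 524 CPM in KO and 296, 469 and 362 CPM in WT (1.06, SE 0.26), and H2-K1 at 350, 272 and 181 CPM against 97.6, 161 and 143 CPM (1.00, SE 0.27). B2m, the shared light chain, was at 754, 687 and 517 CPM against 317, 455 and 420 CPM (0.72, SE 0.18). Tap1, the peptide transporter, differed by 0.74 and the immunoproteasome subunit Psmb9 by 0.86. Within KO, H2-D1, H2-K1, B2m and Psmb9 were highest in KO 1 and lowest in KO 3, as were the macrophage markers, whose part in the result was not tested. The chaperones of general use in the list, Calr (-0.07) and Pdia3 (-0.09), were level. H2-D1, H2-K1 and the H2-Q genes are near-identical copies, so the split of counts among them is uncertain; H2-Q6 (-0.65) and H2-Q7 (-0.23) were lower. The promoters of H2-K1 and H2-D1 are shown because both members were higher and both hold the kappaB element of class I genes, an NF-kB motif. The 250 bases before the start sites (RefSeq, GRCm38.p6; H2-K1 chr17:34000348-34000597, minus strand; H2-D1 chr17:35262844-35263093, plus strand) read as follows, with that element in capitals:
H2-K1: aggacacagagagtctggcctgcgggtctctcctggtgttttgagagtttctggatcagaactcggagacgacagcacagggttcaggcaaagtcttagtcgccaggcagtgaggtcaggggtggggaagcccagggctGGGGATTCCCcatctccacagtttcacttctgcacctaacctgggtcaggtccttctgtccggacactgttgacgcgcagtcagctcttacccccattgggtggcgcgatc
H2-D1: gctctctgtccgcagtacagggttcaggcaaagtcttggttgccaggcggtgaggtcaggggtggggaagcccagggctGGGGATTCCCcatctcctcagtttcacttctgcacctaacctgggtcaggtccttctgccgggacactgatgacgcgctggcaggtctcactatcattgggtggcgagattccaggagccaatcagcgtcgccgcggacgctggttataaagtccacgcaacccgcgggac
On either strand the same letters were found in 4 of the 18 members with an entry in the promoter table, the others being H2-Q6 and H2-Q7. They were found in 0.0852% of 32851 promoters, counted singly, whereas a member counted if any of its promoters held them. H2-Q6 and H2-Q7 hold the letters and were lower, so members with the letters did not share a direction.

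Complement, lysosomal and lipid genes were higher as well, and the macrophage markers moved with them. Of 19 complement genes, 15 were positive, with a median of 0.58 (0.24 without WT 1) and 7 meeting the rule upward. C1qb, a chain of the first complement component made by macrophages, stood at 920, 856 and 603 CPM in KO and 425, 518 and 334 CPM in WT (0.90, SE 0.21). Cfp, properdin, was at 282, 282 and 212 CPM against 139, 164 and 116 CPM (0.89, SE 0.16). All 30 lysosomal genes were positive, with a median of 0.63; 15 met the rule and DESeq2 called 21, in each case upward. Ctsb, a cathepsin protease, stood at 10301, 9489 and 6569 CPM against 3955, 5561 and 4218 CPM (0.94, SE 0.21). Hexa, a hexosaminidase subunit, was at 704, 613 and 439 CPM against 274, 348 and 304 CPM (0.92, SE 0.18). Within KO each of these was lowest in KO 3, as were the macrophage markers, whose sum in KO 3, 9106 CPM, was also above every WT sum. Of 33 fatty acid, adipogenic and lipid storage genes, 29 were positive, with a median of 0.34 and 7 meeting the rule upward. Fabp5, a fatty acid binding protein, stood at 1251, 880 and 645 CPM in KO and 220, 446 and 300 CPM in WT (1.52, SE 0.32). Scd2, a desaturase, was at 648, 547 and 625 CPM against 234, 329 and 377 CPM (0.95, SE 0.18), and Srebf1, the lipogenic SREBP gene, at 103, 100 and 103 CPM against 76.2, 77.0 and 78.8 CPM (0.40, SE 0.07). Scd2 and Srebf1 did not follow the order of the macrophage markers over the KO libraries, while Fabp5 and the apolipoprotein Apoe (1.22) did. The part of macrophage RNA in the complement, lysosomal and lipid differences was not tested. The 8 class II genes tested, which macrophages express, had a median of 0.17 (0.01 without KO 1, 0.03 without WT 3 and 0.43 without WT 2), with 0 meeting the rule in either direction; the cathepsin Ctss (0.91) and the peptide loaders H2-DMb1 (0.59) and H2-DMa (0.35) had the smallest p.

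Growth factor signalling showed the opposite balance. Of 28 members of the EGF and FGF families, their receptors and feedback genes, 8 were positive and the median was -0.32 (-0.51 without KO 3), with 1 meeting the rule upward and 10 downward. The ligand Hbegf stood at 6.56, 6.56 and 5.30 CPM in KO and 16.5, 9.74 and 16.4 CPM in WT (-1.21, SE 0.22). Fgf2, basic fibroblast growth factor, was at 42.0, 52.6 and 51.3 CPM against 82.9, 80.5 and 126 CPM (-0.99, SE 0.19). The genes that ERK signalling switches on as feedback were lower with them. Dusp5, a nuclear phosphatase of ERK, was at 7.14, 8.53 and 6.80 CPM against 22.7, 16.2 and 23 CPM (-1.46, SE 0.17), and Dusp4 at 47.1, 54.1 and 53.5 CPM against 150, 80.2 and 98.4 CPM (-1.09, SE 0.22). Etv4, an ETS factor, was at 3.75, 5.19 and 4.97 CPM against 17.1, 9.74 and 15.9 CPM (-1.62, SE 0.24), and Spry4 differed by -0.88. Not all feedback genes shared this: Dusp6 (-0.11), Spry2 (0.15), Errfi1 (0.09) and Etv5 (0.23) were level, and Etv1 was higher at 54.1, 55.1 and 40.3 CPM against 27.3, 38 and 26.1 CPM. The receptor Egfr differed by -0.15.

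Targets of YAP and the TEAD factors, which respond to cell tension and contact, were lower in 18 of 19 genes. 1 of them was positive, the median was -0.60, 8 met the rule downward and 0 upward, and DESeq2 called 10 downward. Ankrd1 stood at 40.6, 36.7 and 43.3 CPM in KO and 103, 69.4 and 71.9 CPM in WT (-1.02, SE 0.16). Ajuba, a LIM protein of cell junctions, was at 24.1, 24.1 and 25.5 CPM against 43.9, 34.3 and 50.8 CPM (-0.81, SE 0.14). Ccn2, a matricellular growth factor, was at 471, 512 and 497 CPM against 970, 663 and 1119 CPM (-0.90, SE 0.19), and its relative Ccn1 at 356, 368 and 340 CPM against 438, 435 and 638 CPM (-0.51, SE 0.16). Wwc1, also known as KIBRA, an upstream regulator of the Hippo kinases, differed by -1.41. Contractile genes, which share several regulators with this group, were lower in 18 of 18 with a median of -1.05, and their part in the result was not tested. The promoters of Ankrd1, Ajuba and Ccn1 are shown because these members were lower together and hold the core letters of the TEAD site. The 250 bases before each start site (RefSeq, GRCm38.p6; Ankrd1 chr19:36119845-36120094, Ajuba chr14:54577662-54577911 and Ccn1 chr3:145649986-145650235, all on the minus strand) follow, with GGAATG, or CATTCC where the site lies on the other strand, in capitals:
Ankrd1: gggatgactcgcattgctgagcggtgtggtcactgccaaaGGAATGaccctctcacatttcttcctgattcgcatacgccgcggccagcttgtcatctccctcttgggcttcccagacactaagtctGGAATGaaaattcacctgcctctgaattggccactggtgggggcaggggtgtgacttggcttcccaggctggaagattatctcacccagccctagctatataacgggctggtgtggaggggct
Ajuba: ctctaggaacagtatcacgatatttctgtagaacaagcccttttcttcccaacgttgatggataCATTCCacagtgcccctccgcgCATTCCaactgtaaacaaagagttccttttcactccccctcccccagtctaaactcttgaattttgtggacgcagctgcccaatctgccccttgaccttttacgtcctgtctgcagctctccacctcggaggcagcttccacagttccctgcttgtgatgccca
Ccn1: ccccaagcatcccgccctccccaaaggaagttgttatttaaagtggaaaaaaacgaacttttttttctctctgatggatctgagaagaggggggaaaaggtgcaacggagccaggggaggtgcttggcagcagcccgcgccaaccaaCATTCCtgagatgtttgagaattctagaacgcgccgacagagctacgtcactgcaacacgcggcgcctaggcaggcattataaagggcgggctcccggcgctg
Ankrd1 and Ajuba each hold 2 copies and Ccn1 holds 1. On either strand the letters were found in 7 of the 13 members with an entry in the promoter table and in 12.6% of 32851 promoters. Members were counted by gene, with the letters in any of their promoters, so the shares are not of the same unit. Amotl2 (-0.23), Axl (-0.45) and Ccn1, which hold them, did not meet the 1.5 fold rule, so the letters and the size of the difference did not go together in every member.

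TGF-beta, BMP and Wnt genes lay below WT at several levels of each pathway. Of 28 TGF-beta genes, 6 met the rule downward and 1 upward, with a median of -0.21. Inhba, the activin A subunit, stood at 81.3, 82.8 and 91.6 CPM in KO and 227, 128 and 173 CPM in WT (-1.05, SE 0.20). Tgfb3, a ligand, was at 55.6, 69.8 and 63.7 CPM against 110, 98.3 and 186 CPM (-1.06, SE 0.24), and Pmepa1, a negative feedback target, differed by -0.80 (SE 0.15). The receptor Tgfbr2 went the other way, at 296, 285 and 231 CPM against 149, 207 and 185 CPM (0.59, SE 0.15). Of 29 BMP genes, 7 met the rule downward and 0 upward, with a median of -0.19 (-0.09 without WT 3). Id1, a direct BMP target, stood at 10.2, 11.4 and 11.9 CPM against 55.4, 21.4 and 18.1 CPM (-1.5, SE 0.41), with most of the difference in WT 1. Smad9, a BMP signal transducer, differed by -1.11. Wnt genes were positive in 10 of 37, with a median of -0.44 (-0.14 without WT 3), 7 meeting the rule downward and 1 upward. Wnt4, a ligand, was at 3.26, 3.98 and 3.84 CPM against 6.41, 7.52 and 9.74 CPM (-1.09, SE 0.18). Tcf7, a transcription factor of the pathway, was at 2.07, 2.10 and 1.75 CPM against 3.76, 3.30 and 3.51 CPM (-0.83, SE 0.14). The receptor Fzd4 differed by -0.57, and Axin2, a general Wnt target, by -0.29 at under 1 CPM in each library. Genes of the PDGF, VEGF and HGF families were mixed: Vegfb (0.75) and Hgf (0.82) were higher and Met, the HGF receptor, was lower at 17.3, 17.8 and 17.5 CPM against 24.9, 36.2 and 60.7 CPM.

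Positional and guidance genes also differed. Of 51 axon guidance genes, 11 met the rule downward and 4 upward, with a median of -0.29 (-0.10 without WT 3, -0.19 without KO 1 and -0.48 without KO 3). Efnb2, an ephrin, stood at 39.0, 43.7 and 41.3 CPM in KO and 78.3, 65.5 and 110 CPM in WT (-1.03, SE 0.18), and Plxna4, a semaphorin receptor, at 5.38, 6.67 and 4.38 CPM against 9.93, 11.9 and 17.4 CPM (-1.26, SE 0.24). Slit1, a repellent ligand, was higher at 7.70, 6.30 and 4.36 CPM against 2.09, 2.97 and 2.54 CPM (1.27, SE 0.24). Among 20 Hox genes, which record position along the body, the members of the A and B clusters had negative differences, 15 of 15, and those of the C and D clusters positive ones, 5 of 5. With a median of -0.46, 6 met the rule downward and 2 upward; 8 further members were under the filter. Hoxb2 was at 3.88, 5.06 and 5.43 CPM against 8.80, 6.78 and 7.92 CPM (-0.71, SE 0.17). Hoxd8 stood at 0.937, 1.26 and 2.08 CPM against 0.221, 0.0215 and 0.241 CPM (3.18, SE 0.59), resting on 9, 1 and 9 counts in WT. Hoxc8 (2.60, SE 0.95) rested on KO 3 at 1.69 CPM and overlapped WT. Of 24 hedgehog and lung mesenchyme factors, 5 met the rule downward and 1 upward. Foxf1, a factor of lung mesenchyme, stood at 15.3, 15.1 and 15.5 CPM against 24.5, 20.6 and 29.1 CPM (-0.69, SE 0.13), and Foxf2 (-0.78), Tbx2 (-1.35) and Tbx4 (-1.38, SE 0.32) were lower with it. Of 26 markers of alveolar and adventitial fibroblasts, 3 met the rule downward, Lgr6, Cthrc1 (-1.23) and Npnt (-0.95), and 1 upward, Pi16 (1.04); the median was -0.14 and turned to 0.06 without WT 3.

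The matrix genes lay on both sides of WT. The 29 collagen chains had a median of -0.26 (-0.12 without WT 3 and -0.15 without KO 1), 3 meeting the rule downward and 2 upward. Col4a1 and Col4a2, the basement membrane pair, stood at 969, 934 and 1160 CPM against 1862, 1427 and 2654 CPM (-0.96, SE 0.23) and at 756, 715 and 902 CPM against 1309, 1004 and 1780 CPM (-0.79, SE 0.21). Col1a1, the main chain of fibrillar collagen, differed by -0.28 (SE 0.17), and Col3a1 was higher by 0.77 (SE 0.32), with WT 1 low at 1870 CPM. Of 40 matricellular and elastic fibre genes, 5 met the rule downward and 1 upward, with a median of -0.12 (-0.07 without WT 3 and -0.27 without KO 3). Ccn4, a Wnt-induced matricellular gene, was at 55.6, 58.7 and 67.0 CPM against 135, 102 and 199 CPM (-1.26, SE 0.23), and Eln, elastin, was at 22.5, 11.7 and 12.9 CPM against 28.5, 29.7 and 56.1 CPM (-1.28, SE 0.34). Among 37 proteases and inhibitors, 6 met the rule downward and 2 upward; the median was -0.20 and turned to 0.16 without WT 3. Adamts12, a secreted metalloprotease, was at 79.9, 83.3 and 97.0 CPM against 164, 123 and 168 CPM (-0.81, SE 0.14). Mmp13, a collagenase, differed by -1.02, Col11a1 by -1.22 and the TGF-beta binding protein Ltbp2 by -0.55. The 32 proteoglycan and basement membrane genes had a median of -0.01, with the laminin chains Lama1 (1.42) and Lama3 (0.96) higher and the hyaluronan synthase Has2 (-1.05) lower.

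Genes of the integrated stress response, which ATF4 switches on when amino acids run short, were lower in KO. 1 of 31 was positive (Cebpb, 0.24), the median was -0.40, and 10 met the rule downward with 0 upward. Phgdh, the first enzyme of serine synthesis, stood at 50.1, 67.4 and 91.4 CPM in KO and 165, 93.7 and 132 CPM in WT (-0.90, SE 0.26). Mthfd2, a mitochondrial folate enzyme, was at 34.5, 38.5 and 46.6 CPM against 82.5, 53.6 and 57.9 CPM (-0.70, SE 0.19), and Slc7a3, a carrier of cationic amino acids, differed by -1.17 (SE 0.24). Psat1 (-0.79), Asns (-0.69) and Aldh1l2 (-0.66) followed, and Atf4 itself differed by -0.40. In this group KO 3 was the highest KO library and WT 2 the lowest WT library for Phgdh, Mthfd2 and Asns. In these genes the groups stayed apart. The summed list overlapped, at 2389, 2679 and 3255 CPM in KO and 4158, 3180 and 3600 CPM in WT. Slc7a11, the cystine carrier shared with the NRF2 group, was lower (-0.86, SE 0.16), while Cat, catalase (0.47), and Gstm1 (0.77) were higher and the 30 NRF2 and glutathione genes had a median of 0.10. The 21 chaperones of the unfolded protein response had a median of -0.06 and 0 met the rule; Edem1 (0.40), Manf (-0.26) and Sdf2l1 (0.31) had the smallest p.

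Respiratory chain transcripts differed little. Of the 15 mitochondrially encoded transcripts 2 were positive, with a median of -0.20 (-0.10 without WT 1, -0.32 without KO 3 and -0.34 without WT 3). mt-Cytb stood at 416, 394 and 464 CPM in KO and 776, 555 and 519 CPM in WT (-0.54, SE 0.16). Of the 55 nuclear-encoded subunits 44 were positive, with a median of 0.11 (0.05 without WT 3) and 0 meeting the 1.5 fold rule, and their summed levels overlapped between genotypes. Cytosolic ribosomal proteins, 73 genes, had a median of 0.01 and lay between -0.18 and 0.18. The cell cycle lists depended on WT 1: the median of 36 mitosis genes was -0.30 with all libraries and 0.01 without WT 1, and that of 38 DNA replication genes went from -0.16 to 0.10. Mitosis genes summed to 2423 CPM in WT 1 and 1230 CPM in WT 3, a wider range within WT than between the genotypes, whose KO libraries lay at 1411 to 1535 CPM. Of 28 p53 targets and cell-cycle inhibitors, 2 met the rule upward and 3 downward. Sesn1, a sestrin, was at 55.1, 52.4 and 38.9 CPM against 22.4, 31.6 and 25.7 CPM (0.88, SE 0.17) and Cdkn1a differed by -0.22. The 36 genes of double-strand break and crosslink repair had a median of -0.08 (0.06 without WT 1 and -0.19 without WT 3), with 0 meeting the rule in either direction; Xrcc4 (0.51), Xrcc5 (-0.49) and the helicase Wrn (0.34) had the smallest p. The medians of the remaining lists moved with the library left out. With all 6 libraries they were as follows: immediate early genes -0.02 (28 genes, with Atf3 at 0.79, Zfp36 at 0.56 and Btg2 at -0.56), the IGF axis 0.01 (17, with Irs1 at -0.63), PDGF and VEGF 0.10 (21), retinoic acid genes -0.13 (18, with the degrading enzyme Cyp26b1 at -1.89, Rarb at -0.61 and the synthetic enzyme Aldh1a3 at 1.16), and hypoxia and glycolysis 0.06 (30, with Pfkfb4 at 0.67). Leaving out 1 library took them from -0.10 to 0.13 for immediate early genes, -0.45 (without KO 3) to 0.27 (without WT 3) for the IGF axis, 0.02 to 0.19 for PDGF and VEGF, -0.24 to 0.03 for retinoic acid genes and -0.02 to 0.16 for hypoxia and glycolysis.

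**Figure D3:**
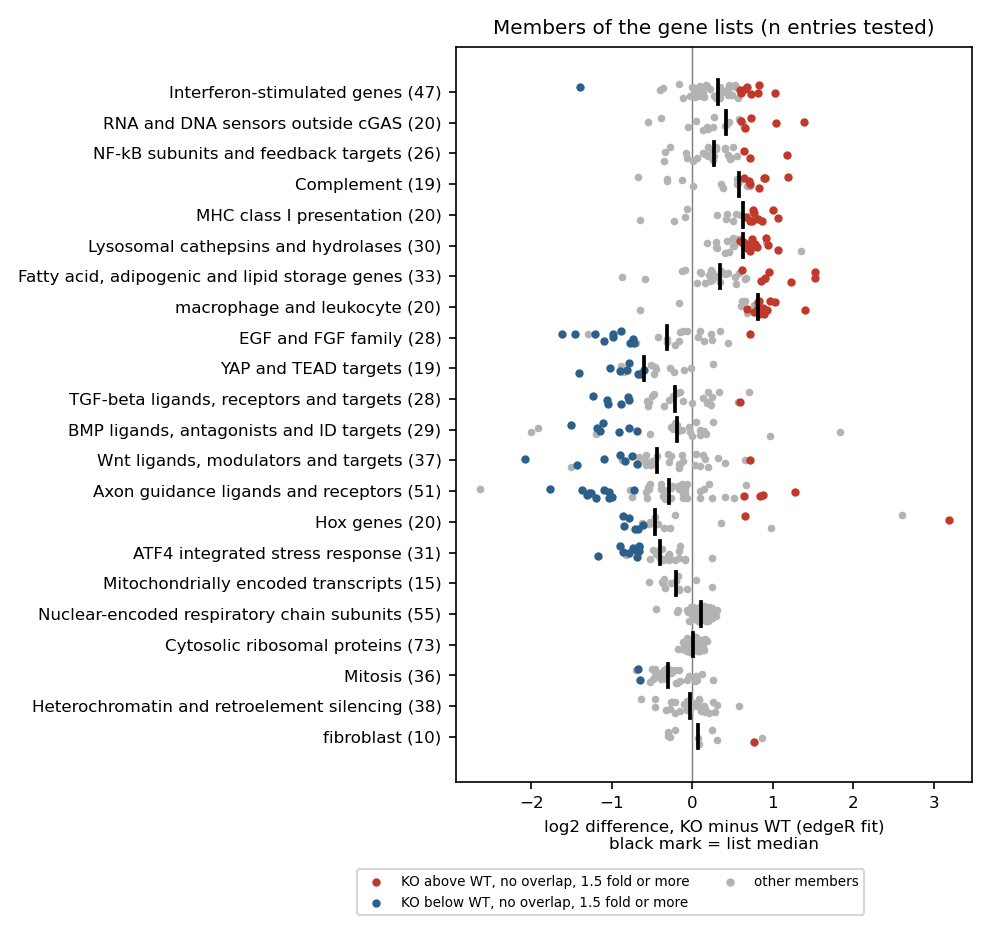
Fitted log2 difference, KO minus WT, of each tested member of 22 gene lists, with red points for members whose KO values lie above all WT values by 1.5 fold or more in the means, blue for those below and grey for the rest. The medians (black marks) run from 0.82 for macrophage and leukocyte markers to -0.60 for YAP and TEAD targets, and ribosomal proteins sit at 0.01.

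Chromatin genes and imprinted genes were examined because the series concerns chromatin organization. Of 38 genes that silence heterochromatin or retroelements, 17 were positive, the median was -0.03 and 0 met the 1.5 fold rule in either direction. Tasor2 (Fam208b in the name table), a relative of a HUSH subunit, stood at 30.0, 30.2 and 33.0 CPM in KO and 48.7, 37.4 and 42.3 CPM in WT (-0.46, SE 0.11). Zfp809, which brings TRIM28 to retroviral sequences, was at 24.6, 24.4 and 23.3 CPM against 28.7, 30.3 and 40.9 CPM (-0.46, SE 0.14). Apobec3, a restriction factor, was higher at 25.2, 24.9 and 19.2 CPM against 13.6, 19.4 and 13.3 CPM (0.58, SE 0.18), with KO 3 below WT 2. Apobec3 ranked within each genotype as the macrophage markers did, and their part was not tested. The nuclear lamina and envelope list had a median of -0.10 (0.00 to -0.21 over the libraries left out); Syne2, nesprin-2, was at 79.4, 69.0 and 50.1 CPM against 108, 156 and 257 CPM (-1.39, SE 0.32), and Lmnb1 differed by -0.30 (SE 0.25). Syne2 ranked over the 3 KO and over the 3 WT libraries as the mesothelial markers did (67.2, 53.6 and 29.3 CPM against 37.3, 132 and 225 CPM), and their part was not tested. Of 25 imprinted genes 7 were positive, with a median of -0.37 (-0.45 to -0.23 over the libraries left out). The 1.5 fold rule was met by 5 upward and 5 downward. Those higher were H19, Igf2r (0.59), Cdkn1c (1.20), Slc22a18 (0.65) and Ascl2 (0.76). H19 stood at 12.1, 10.7 and 23.3 CPM in KO and 1.33, 5.15 and 7.25 CPM in WT (1.75, SE 0.56). The lower ones were Peg3, Peg10 (-1.28), Rtl1 (-0.96), Mirg (-0.97) and Nnat (-0.62). Of 40 clustered protocadherins 34 were positive, with a median of 0.15 that was -0.01 without KO 3 and 0.25 without KO 1.

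Most repeat subfamilies had small negative differences. Of 1033 subfamilies tested, 917 (88.8%) had a negative difference and the median was -0.30, with quartiles of -0.39 and -0.17; of the 20193 genes, 49.4% were negative and the median was 0.005. All 3 KO values lay below all 3 WT values in 335 subfamilies (32.4%), and above them in 19 (1.84%), where the same counts over all entries were 13.6% and 18.6% and over genes alone 12.6% and 19.4%. With the means 1.5 fold apart the counts were 60 (5.81%) and 5 (0.484%), and DESeq2 called 40 lower (3.87%) and 4 higher (0.387%). The shares lower by these rules were near those of genes, 5.44% and 4.44%, and the shares higher were under the 6.01% and 7.16% of genes. edgeR called 0, with 291 (28.2%) at an unadjusted p under 0.05, and limma-voom called 0. Among the 624 subfamilies whose mean log2 CPM reached 1, 573 (91.8%) were negative. Leaving out any 1 library left 881 to 967 subfamilies negative, and the scaling choices 917 to 930. The count below all WT values was 718 without KO 1, the KO library with the most repeat counts, and 347 to 464 without any other library, although with 2 libraries against 3 the rule is easier to meet. The subfamilies share libraries and overlapping sequence, so they are not separate replicates of the difference. The median was similar in families of different age and type: -0.28 for LINE-1, -0.34 for B1-related Alu elements, -0.38 for B2, -0.33 for MIR, -0.27 for L2, -0.28 for ERVK, -0.29 for ERVL-MaLR and -0.34 for DNA transposons.

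LINE-1 elements, named in the series title, took 0.574%, 0.461% and 0.498% of all counts in KO 1, KO 2 and KO 3 and 0.586%, 0.593% and 0.667% in WT 1, WT 2 and WT 3. The difference was -0.104 percentage points; the exact permutation test (two-sided, 20 arrangements) gave p = 0.1, the smallest that 3 against 3 allows, and 0.140 after adjustment over 28 repeat groups. With TMM-scaled library sizes as the denominator the groups overlapped, from 0.466% to 0.596% in KO and 0.577% to 0.673% in WT (exact permutation p = 0.3). The L1Md subfamilies, which include the youngest mouse LINE-1 elements, also overlapped. Of 25, 2 were positive, the median was -0.23, and their summed shares were 0.194%, 0.160% and 0.168% against 0.189%, 0.191% and 0.219% (exact permutation p = 0.3). L1MdA_I, the most abundant, stood at 255, 181 and 163 CPM in KO and 173, 175 and 196 CPM in WT (0.14, SE 0.17), highest in KO 1. L1MdTf_I, a young active type, was at 36.5, 28.5 and 33.1 CPM against 33.9, 36.4 and 49.7 CPM (-0.29, SE 0.16). Older LINE-1 types took 0.381%, 0.301% and 0.329% against 0.397%, 0.402% and 0.448%. No LINE-1 subfamily met the 1.5 fold rule upward and 6 met it downward, of 145 tested.

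SINE elements, short repeats copied with the LINE-1 machinery, were lower in all 34 subfamilies tested. They took 2.73%, 2.63% and 2.95% of counts in KO and 3.07%, 3.30% and 3.26% in WT (exact permutation p = 0.1, adjusted 0.140), and the groups stayed apart with TMM-scaled library sizes. The SINE family with the most counts, B4, did not separate the genotypes by share. It took 1.55%, 1.69% and 1.93% in KO and 1.68%, 1.99% and 1.88% in WT (exact permutation p = 0.5). B2_Mm1a, a young B2 type, stood at 286, 234 and 264 CPM in KO and 405, 337 and 365 CPM in WT (-0.50, SE 0.11), and B1_Mus1 at 989, 785 and 842 CPM against 1156, 1051 and 1139 CPM (-0.36, SE 0.12). Among endogenous retroviruses the internal part of IAPEY4, listed as IAPEY4_I, had the smallest p of any repeat. It stood at 77.7, 69.1 and 69.4 CPM against 152, 127 and 161 CPM (-1.02, SE 0.11; adjusted p 0.0711, and 4.78e-11 by DESeq2), and its long terminal repeat IAPEY4_LTR at 4.13, 3.6 and 4.13 CPM against 7.17, 6.96 and 9.10 CPM (-0.97, SE 0.15). IAPEz-int, the most abundant IAP element, was level at 449, 384 and 390 CPM against 388, 329 and 389 CPM (0.14, SE 0.11). The 14 tested IAP subfamilies with names other than IAPEY had a median of -0.01 and summed shares that overlapped (exact permutation p = 0.5). That set kept IAPEy-int, whose KO values lay below WT (-0.26, SE 0.16) without meeting the 1.5 fold rule. Among other IAPEY members, IAPEY5_LTR (-0.66, SE 0.46) met the rule downward on 3 to 12 counts a library. IAPEY3_LTR differed by -0.41 and IAPEY5_I by 0.08, with groups that overlapped. GSAT_MM, the mouse major satellite, was at 2.48, 2.69 and 1.77 CPM against 3.61, 7.17 and 4.71 CPM (-1.16, SE 0.28). Of 6 satellite subfamilies tested 1 was positive, MMSAT4, whose KO values lay above every WT value (0.36, SE 0.13). Charlie19a (-0.69) and RLTR20A2 (-0.71) completed the lower subfamilies with the smallest p.

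The 5 subfamilies that met the 1.5 fold rule upward were all of the LTR class, among them RLTR1B, LTR37A and RLTR45-int. RLTR1B stood at 37.8, 33.2 and 24.9 CPM in KO and 17.6, 19.6 and 18.5 CPM in WT (0.78, SE 0.16). LTR37A was at 18.6, 16.8 and 11.4 CPM against 8.13, 9.30 and 8.59 CPM (0.85, SE 0.18), and RLTR45-int at 48.3, 40.6 and 27.2 CPM against 21.6, 25 and 20.6 CPM (0.79, SE 0.20). LTR88c, at 141, 126 and 109 CPM against 89.5, 94.0 and 79.7 CPM (0.51, SE 0.12), makes up most of the counts of the Gypsy family, of which 6 of 15 subfamilies were positive with a median of -0.33, and RLTR44C differed by 0.45. The 4 with values ranked KO 1, KO 2, KO 3, the order of the macrophage markers, and the part of that cell type was not tested. A pair of retroviral entries varied widely among animals. RLTR4_MM-int held 18538, 3816 and 2849 CPM in KO and 2574, 6243 and 11637 CPM in WT, and MMVL30-int, from the VL30 retroelement, 2597, 2476 and 1706 CPM against 1608, 4352 and 8440 CPM. The groups overlapped in both, and MMVL30-int ranked within each genotype as the mesothelial markers did, with the highest values in KO 1 for the former and in WT 3 for the latter. All repeats together took 5.31% to 7.22% of counts in KO and 6.11% to 8.10% in WT (exact permutation p = 0.3). Without those entries they took 4.71% to 5.29% and 5.71% to 6.23% (exact permutation p = 0.1), an alternative chosen after seeing the data.

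**Figure D4:**
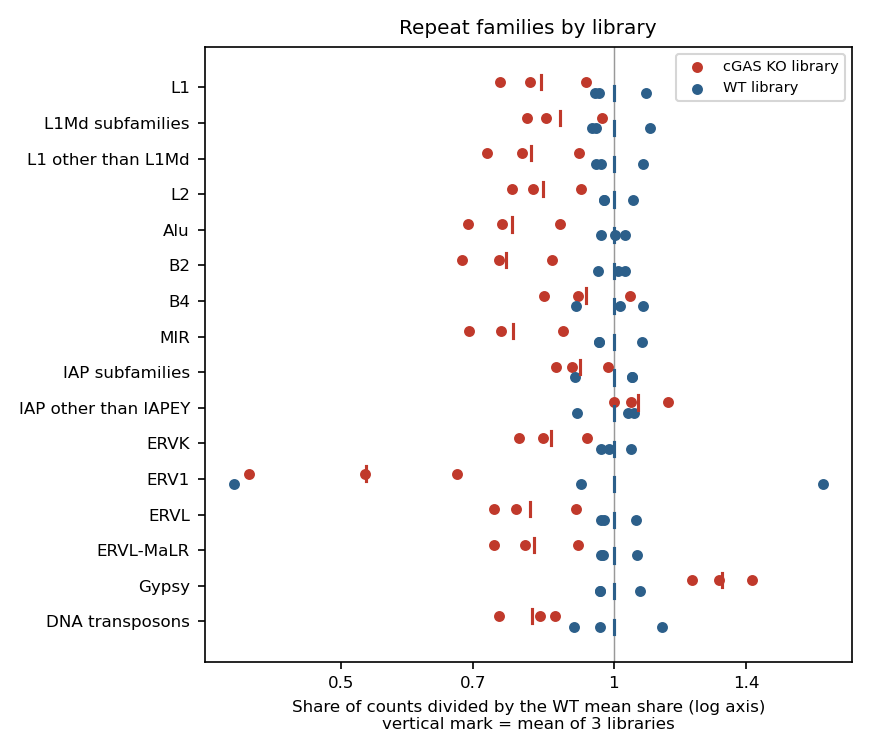
Share of each library's counts on 16 repeat groups, divided by the mean share of the 3 WT libraries, on a log axis, with each point 1 library and each vertical mark the mean of 3. KO points lie left of the WT points for the SINE families Alu and B2, while those of the SINE family B4 overlap. LINE-1 and L1Md points come close or overlap, and ERV1 is spread widely within both genotypes.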

How the data were processed

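RNA-seq count tables of 6 male libraries (3 cGAS KO, 3 WT) were used; groups came from the sample titles and genotype labels. Raw counts per gene and repeat subfamily were deposited by the authors; the submitters' processing notes list Trim Galore, STAR and the build GRCm39, without versions. The counting program and its treatment of strand and of reads with several matches are not given in the sources used here, and whether repeat counts hold reads that lie inside genes was not tested. Symbols came from GENCODE vM21 names (52073 of 56980 gene IDs matched); chromosomes and distances between genes were read from that annotation (GRCm38), and promoters from RefSeq (GRCm38.p6). Counts were fitted with edgeR 4.0.16 (TMM, filterByExpr minimum count 10, quasi-likelihood F-test, 2 groups without covariates, Benjamini-Hochberg over 21226 entries) in R 4.3.3; SE is the log2 difference over the square root of F. A count of 3 is 0.0617 to 0.0803 CPM. The fit had 4 residual degrees of freedom. It was also run on counts simulated from its own fitted dispersions with known changes. Such a run does not test the fit on the spread among these libraries. Alternatives were DESeq2 1.42.0, limma-voom 3.58.1, other scalings and filters, a replicate block and leaving out each library. p-values measure the spread among 3 animals a genotype. Genes named by rule were Cgas, the 15 genes of smallest p in each direction (with symbols of their own, outside the sterol, macrophage and contractile lists, mean log2 CPM of 1 or more), the 3 members of each list and 5 repeats in each direction of smallest p, and the most abundant repeat of a family; other named members were chosen after their values were seen, and some items are not reported here. The library set and all lists were chosen with earlier results of these data known. Repeat shares were compared with a two-sided exact permutation test.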

Additional observations from a re-analysis of the deposited data

How the results depend on the processing

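Leaving out 1 library moved Cgas between -2.04 and -1.69, edgeR's calls between 0 and 258 (the highest without WT 2, 1 without WT 3), its repeat calls between 0 and 2, and the entries apart by 1.5 fold between 2662 and 3741, all above the main count, as fewer libraries make that rule easier to meet. Without a low-count filter Cgas was -1.84 (adjusted p 0.00796), edgeR called 1162 entries, 9 of them repeats, and 3737 were apart by 1.5 fold; with genes under a mean log2 CPM of 1 left out those were 1353. DESeq2 gave Cgas -1.86, 2387 calls and 44 repeat calls. The cause of these differences was not tested. With the replicate number as a block Cgas was -1.82 (adjusted p 0.0779) and calls stayed at 0. Deviations from the genotype means correlated at -0.228, 0.160 and 0.0670 for same-numbered libraries and at -0.416 to 0.382 for the others. With 3 libraries a genotype, these values cannot tell whether the numbers pair the libraries. Of 215 named genes and repeats the sign turned for Mbp (-0.04), S100b (-0.21) and Nnt (0.08) without WT 1, for Tubb3 without KO 3, WT 2 or WT 3 (-0.29, -0.08 and -0.03) and for RLTR4_MM-int with the block (-0.13), without KO 1 (-1.04) and without WT 1 (-0.09). Over the libraries left out, these ran from -0.04 to 0.41, -0.21 to 0.47, -0.11 to 0.08, -0.29 to 0.31 and -1.04 to 0.93. The LTR share ran from -0.905 to 0.172 percentage points, positive without WT 3, that of all repeats from -1.68 to -0.547 and that of LINE-1 from -0.136 to -0.0786. RLE scaling, TMM factors from gene rows and limma-voom changed no call among the named entries, and scaling moved the median of all entries by at most 0.0212.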

Other observations

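Small nucleolar RNAs, which guide the modification of ribosomal RNA, were mostly lower in KO. Of 449 with at least 1 count, 332 (73.9%) were negative, against 54.2% of 36399 entries treated alike, and their sums were 106, 90.6 and 95.0 CPM in KO and 153, 122 and 101 CPM in WT, with KO 1 above WT 3. Of 14 small nucleolar RNA host genes tested, 13 were negative with a median of -0.32. This class was chosen after its values were seen, and single members hold few counts.

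Loci of the TEC biotype, predicted transcripts without full evidence, were negative in 611 of 850 tested with a median of -0.24, near the repeat median of -0.30, whereas protein-coding genes had a median of 0.02 and antisense genes -0.02. The summed TEC level was not lower in KO, at 3232, 2968 and 2657 CPM against 2502, 2769 and 2558 CPM in WT. The TEC class, too, was chosen after its values were seen.

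Position near the targeted gene was also read. By gene positions of GRCm38, of 16 tested genes within 1 Mb of Cgas on chromosome 9, 3 met the 1.5 fold rule (18.8%, 2 higher and 1 lower in KO). At 1 to 5 Mb 6 of 33 met it (18.2%, all 6 lower in KO). The shares were 13.6% at 5 to 10 Mb, 10.4% at 10 to 20 Mb and 10.6% beyond 20 Mb, against 11.2% of all entries. Autosomes lay between 9.34% and 14%. The counts near Cgas are small.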
